A study of Mus musculus with 3 samples.

Results

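Small leucine-rich proteoglycans are secreted proteins of the extracellular matrix, and the 9 genes for them described here are Bgn, Dcn, Aspn, Fmod, Lum, Prelp, Omd, Ogn and Podn. They were chosen by symbol, and each was found once among the 32285 genes of the feature tables. The data were single-cell RNA-sequencing profiles of aortas from male C57BL/6J-background mice of 3 genotypes, APOE2, APOE3 and APOE4, in which that human allele replaces mouse Apoe throughout the body. Each genotype was 1 library, made from the pooled aortas of 6 APOE2, 5 APOE3 or 7 APOE4 mice. All 3 groups were fed a Western diet with 42% fat and 0.2% cholesterol for 16 weeks from 12 weeks of age. With 1 library per genotype there was no replicate, so no p-value is given between genotypes, and a difference between pooled libraries cannot be told apart from one between genotypes.

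Small leucine-rich proteoglycans have a core protein built of leucine-rich repeats, and many of them carry chondroitin, dermatan or keratan sulfate chains. They bind collagen and shape the assembly and spacing of its fibrils, and several also hold growth factors of the TGF-β family in the matrix. In the arterial wall they are made by adventitial fibroblasts and by medial smooth muscle cells, and biglycan in particular is known for binding apolipoprotein B-containing lipoproteins. The family is usually divided into classes, of which class I holds biglycan (Bgn), decorin (Dcn) and asporin (Aspn), class II holds fibromodulin (Fmod), lumican (Lum), prolargin (Prelp) and osteomodulin (Omd), class III holds osteoglycin (Ogn), and class V holds podocan (Podn).

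Cells with at least 200 detected genes and under 20% mitochondrial UMIs (unique molecular identifiers, each standing for 1 captured RNA molecule) were kept, which left 11772 APOE2, 6737 APOE3 and 8248 APOE4 cells with median depths of 12047, 17618 and 13522 UMIs. Between 14 and 27 cell barcodes were shared by any 2 libraries. The cells formed 25 clusters, R0 to R24, in a clustering that left the 9 genes out, and clusters were named from marker genes that held none of the 9. The fibroblast-like class (R5, R7 and R9; 1667, 894 and 1205 cells in APOE2, APOE3 and APOE4) held all 12 fibroblast markers at 10 counts per 1e+06 UMIs (CPM) or more in every library. The smooth muscle-like class (R0, R1, R2, R3, R6, R12 and R14; 6595, 3562 and 4896 cells) held all 10 smooth muscle markers. The largest cluster of the fibroblast-like class was R7 in APOE2 (36.3% of the class) and R5 in APOE3 and APOE4 (46.2% and 51.6%). In the smooth muscle-like class it was R2 in APOE2 (34.1%) and R0 in APOE3 and APOE4 (27.8% and 31.7%), so values are also given by cluster. Mouse Apoe was counted at 191, 200 and 181 CPM in the 3 libraries, which does not check the genotype. A level is the UMIs of a gene in the pooled cells of 1 class and library, divided by all UMIs of those cells. The intervals are 95% intervals of counting error alone, and CPM values are compared within a gene and not between genes. A ratio from APOE2 to APOE3 is the APOE2 level divided by the APOE3 level, so a negative log2 ratio means lower in APOE2. The same order holds for the other comparisons.

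The members lie in 5 parts of the genome (GRCm38 coordinates of GENCODE M21 genes). Aspn (ENSMUSG00000021388, chr13:49544443-49567565), Omd (ENSMUSG00000048368, chr13:49582462-49592822) and Ogn (ENSMUSG00000021390, chr13:49608046-49624501) follow each other on the plus strand of chromosome 13. All 3 overlap Cenpp, a kinetochore gene on the opposite strand that was counted at 6.27 to 7.11 CPM over all cells. Dcn (ENSMUSG00000019929, chr10:97479609-97518143) and Lum (ENSMUSG00000036446, chr10:97565128-97572703) are neighbours on the plus strand of chromosome 10. Prelp (ENSMUSG00000041577, chr1:133910304-133921414, minus strand) and Fmod (ENSMUSG00000041559, chr1:134037254-134048277, plus strand) lie near each other on chromosome 1. Bgn (ENSMUSG00000031375, chrX:73483602-73495933) is on the plus strand of chromosome X and Podn (ENSMUSG00000028600, chr4:108014791-108096445) on the minus strand of chromosome 4. The annotated span of Podn overlaps Scp2 on the same strand, so that the assignment of reads between them is less certain.

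The 250 bases before the RefSeq start site (GRCm38.p6, plus strand) are shown for the 3 neighbours on chromosome 13, whose levels had similar patterns over the cell clusters (Pearson r = 0.84 for Aspn and Omd, 0.79 for Aspn and Ogn and 0.79 for Omd and Ogn). Members on different chromosomes had values as high, with r = 0.90 for Fmod and Podn and 0.82 for Ogn and Prelp. Capitals mark TATAAA or CCAAT on either strand.
Aspn, chr13:49544193-49544442: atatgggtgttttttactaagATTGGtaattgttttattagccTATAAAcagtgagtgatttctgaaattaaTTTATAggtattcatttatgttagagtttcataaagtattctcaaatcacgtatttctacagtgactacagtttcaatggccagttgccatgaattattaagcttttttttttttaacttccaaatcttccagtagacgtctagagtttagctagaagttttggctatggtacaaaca
Omd, chr13:49582212-49582461: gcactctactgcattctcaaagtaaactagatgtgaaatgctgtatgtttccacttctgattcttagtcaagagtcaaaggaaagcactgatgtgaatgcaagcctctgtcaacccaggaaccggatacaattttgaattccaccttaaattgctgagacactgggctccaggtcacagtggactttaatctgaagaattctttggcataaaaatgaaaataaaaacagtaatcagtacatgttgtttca
Ogn, chr13:49607765-49608014: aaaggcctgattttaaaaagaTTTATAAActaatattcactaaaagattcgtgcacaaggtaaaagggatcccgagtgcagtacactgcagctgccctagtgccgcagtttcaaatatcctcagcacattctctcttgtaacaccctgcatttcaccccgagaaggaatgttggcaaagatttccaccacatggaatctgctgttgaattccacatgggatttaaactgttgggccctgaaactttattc
In this window Aspn had TATAAA 207 bases before the start site, its reverse complement at 178 bases and the reverse complement of CCAAT at 229 bases, and Ogn had overlapping TATAAA matches on both strands at 227 and 229 bases. Over all 32536 windows of the same length, 12.3% held TATAAA and 33.8% held CCAAT. Neither TGANTCA (6.73% of windows) nor the CArG box (1.48%) was found in these windows on either strand, and that of Omd held none of the motifs.

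Which cells held each gene differed widely within the family. Of the 9 genes, 8 were higher in fibroblast-like than in smooth muscle-like cells in all 3 libraries, against 48.7% of the 13447 genes with at least 50 UMIs. Bgn was the exception.

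**Figure D1:**
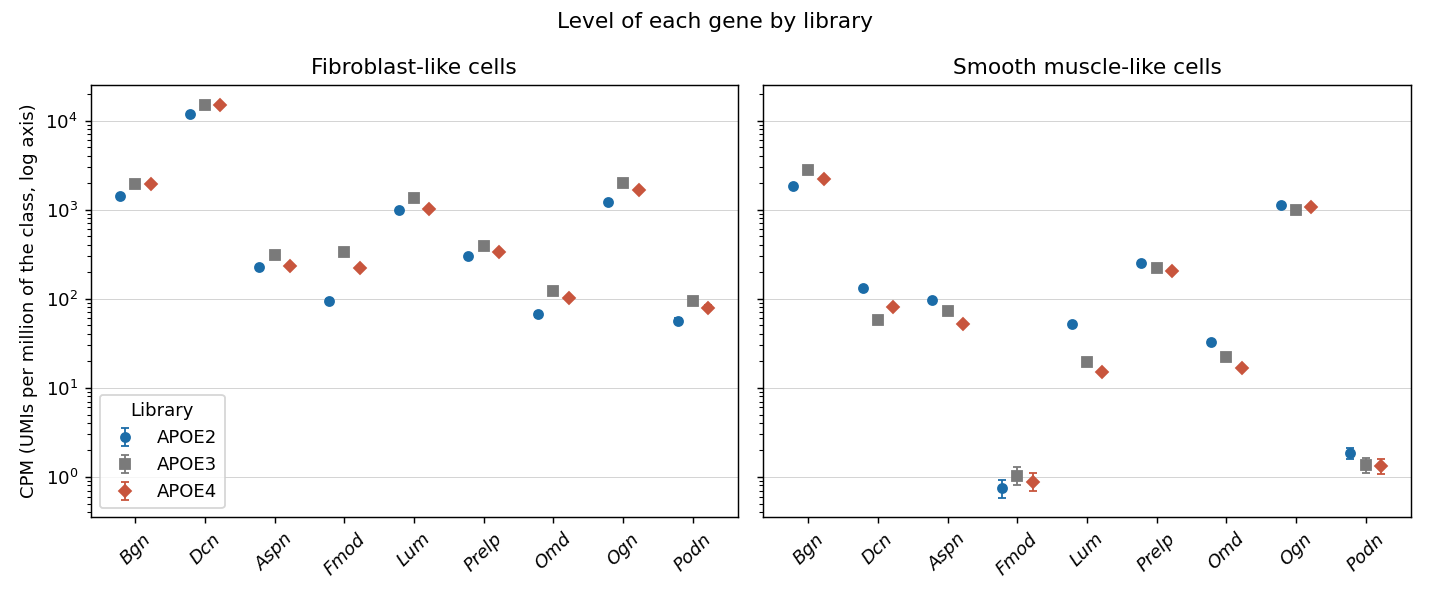
CPM of each gene on a log axis in fibroblast-like cells (left) and smooth muscle-like cells (right), with 1 point per genotype library and bars for the exact Poisson 95% interval. Fmod and Podn sit near 1 CPM in smooth muscle-like cells, while Bgn is between 1428 and 2752 CPM in both classes.

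Among the class I genes, Dcn, whose product coats collagen fibrils and binds TGF-β, lay mostly in the fibroblast-like class. Its level there was 11716, 15028 and 15022 CPM in APOE2, APOE3 and APOE4, against 132, 57.6 and 81.4 CPM in smooth muscle-like cells. The ratio of the classes was 88.6-fold in APOE2, 261-fold in APOE3 and 184-fold in APOE4. After each cell was thinned to 1000 UMIs, 96.8% to 98.8% of fibroblast-like cells held a Dcn UMI, and so did 1.88% to 4.86% of smooth muscle-like cells. Bgn, the biglycan gene, was spread over the wall. Its level was 1428, 1938 and 1940 CPM in fibroblast-like cells and 1833, 2752 and 2199 CPM in smooth muscle-like cells, and it was lower in the fibroblast-like class in each library (log2 ratio -0.36, -0.51 and -0.18). Endothelial-like cells held 968 to 1439 CPM of Bgn. Aspn, whose product is known for binding collagen and TGF-β, was at 228, 311 and 234 CPM in fibroblast-like cells and at 97.0, 73.5 and 52.2 CPM in smooth muscle-like cells. The ratio of Aspn between the classes was 2.35-fold in APOE2 and 4.23-fold and 4.47-fold in APOE3 and APOE4.

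Of the class II genes, Fmod and Lum were far higher in fibroblast-like than in smooth muscle-like cells, while Prelp and Omd were found in both classes. The fibroblast-like class held 81.3% and 86.9% of Lum UMIs in APOE3 and APOE4. In APOE2 it held 33.1%, and the unnamed cluster R8, described below, held 47.3%. Fmod, a modulator of collagen fibril growth, was at 95 CPM (95% interval 90.5 to 99.8) in fibroblast-like cells of APOE2, against 336 CPM (324 to 348) for APOE3 and 220 CPM (212 to 228) for APOE4. In smooth muscle-like cells Fmod was at 0.742, 1.03 and 0.875 CPM. Lum, a keratan sulfate proteoglycan that regulates fibril thickness, was at 985, 1335 and 1021 CPM in fibroblast-like and at 51.8, 19.2 and 15.1 CPM in smooth muscle-like cells. The Lum class ratio was 19-fold in APOE2, against 69.5-fold and 67.8-fold in the other libraries. Prelp, whose product binds both collagen and heparan sulfate, was 1.21-fold to 1.73-fold higher in fibroblast-like cells, at 304, 387 and 337 CPM against 251, 224 and 203 CPM. Omd, best known from bone, was at 66.6, 123 and 102 CPM in fibroblast-like cells and at 32.9, 21.8 and 16.6 CPM in smooth muscle-like cells.

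Ogn of class III, which encodes a protein of the wall matrix also called mimecan, was well represented in both classes. It was at 1218, 1993 and 1647 CPM in fibroblast-like and at 1118, 993 and 1083 CPM in smooth muscle-like cells. The class ratio ran from 1.09-fold in APOE2 to 2.01-fold in APOE3. Podn of class V, a repressor of smooth muscle growth in mice, was far higher in the fibroblast-like class. It was at 56.7, 93.3 and 79.4 CPM there and at 1.84, 1.35 and 1.31 CPM in smooth muscle-like cells. The fibroblast-like class held 68.5%, 80.5% and 84.5% of all Podn UMIs, and the unnamed clusters held 17.7%, 9.61% and 5.22%. After thinning, 6.22% to 10.0% of fibroblast-like cells and 0.113% to 0.213% of smooth muscle-like cells held a Podn UMI.

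Ranked by level, Ogn, Prelp and Aspn had the fibroblast-like class first and the smooth muscle-like class next in each library. Fmod and Podn had the fibroblast-like class first in each library, with every other class at 32.5 CPM or less. For Bgn the smooth muscle-like class came first in each library and the fibroblast-like class next. The fibroblast-like and smooth muscle-like levels of Ogn lay closest in APOE2, at 1218 and 1118 CPM (log2 ratio 0.12, interval 0.10 to 0.14). The B lymphocyte-like, T lymphocyte-like and erythroid-like classes of APOE3 held 11, 15 and 5 cells, and their places are not read.

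The remaining classes were read against the UMIs that blood cells held. Macrophage-like cells held 297 to 623 CPM of Bgn, 152 to 273 CPM of Ogn and 94.9 to 451 CPM of Dcn, while their summed smooth muscle markers were at 6728 to 13184 CPM. In erythroid-like cells of APOE2 (67 cells) Bgn was at 161 CPM and Ogn at 80.7 CPM. After thinning, 3.70% to 8.96% of erythroid-like cells in the 2 libraries with more than 10 of them held a Bgn UMI, at a median depth of 6194 and 7884 UMIs, and 13.6% to 17.0% of macrophage-like cells did, at 7409 to 8522 UMIs. In APOE2 and APOE4 it was 7.89% and 9.80% of T lymphocyte-like and 19.4% and 6.32% of B lymphocyte-like cells. Red cells and lymphocytes are not known to make decorin or biglycan, so shares in the range of theirs are read as background. A Dcn UMI was held after thinning by 1.49% and 3.70% of erythroid-like cells in APOE2 and APOE4. The shares were 5.56% and 1.12% for B lymphocyte-like and 0.877% and 1.96% for T lymphocyte-like cells. Each of these rests on 3 cells or fewer, so they cannot say whether the smooth muscle-like Dcn share (1.88% to 4.86%) lies above background. After thinning to 3000 UMIs, 8.93% of smooth muscle-like cells in APOE2 and 4.05% in APOE4 held a Dcn UMI. These lie within the intervals of T lymphocyte-like cells of APOE2 (8 of 100, 3.52% to 15.2%) and B lymphocyte-like cells of APOE4 (9 of 201, 2.07% to 8.33%). For Lum the smooth muscle-like shares were 2.15%, 0.872% and 0.819%, against 1.49% and 0% of erythroid-like and 0% and 0.372% of B lymphocyte-like cells. An Fmod UMI was held by 0.0610% to 0.141% of smooth muscle-like cells and by 0 of 67 erythroid-like cells of APOE2. The 95% interval for 0 of 67 reaches 5.36%. Of B lymphocyte-like cells of APOE4, 0 of 269 held one, with an interval up to 1.36%. Of T lymphocyte-like cells, 0 of 114 in APOE2 and 1 of 102 in APOE4 held one. These blood cells are too few to say whether the smooth muscle-like share lies above background. In endothelial-like cells of APOE2 (117 cells) Dcn was at 1192 CPM against 74.0 and 30.8 CPM in the other libraries, which held 14 and 21 such cells. The share of endothelial-like cells with a Dcn UMI after thinning was 18.9% in APOE2 (20 of 106 cells deep enough to thin). It was 16.7% in APOE3 (2 of 12) and 15.8% in APOE4 (3 of 19), too few cells to compare the libraries.

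Within the fibroblast-like class the 3 clusters held different members. R5, which led in Inmt and C7, had a higher level of each of the 9 genes than R7 in every library. R7 was the cluster with Dpp4 (57.7 to 103 CPM, against under 1 CPM in R5) and with more Pi16. Fmod was at 243, 560 and 366 CPM in R5, at 10.6, 97.9 and 57.9 CPM in R7 and at 55.6, 150 and 106 CPM in R9. Hhip, a hedgehog-binding gene, was at 75.1 to 163 CPM in R5 and at 4.45 to 31.0 CPM in R7. Lum was at 1351 to 1825 CPM in R5 and at 790 to 952 CPM in R7. R9 was a shallow cluster, with a median of 2830 UMIs per cell and 29.8% of its cells among the highest doublet scores.

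The APOE2 library had the lowest level of all 9 genes in the fibroblast-like class taken as a whole. Fmod was 3.53-fold higher in APOE3 than in APOE2 (log2 ratio APOE2 to APOE3 -1.82, interval -1.91 to -1.73), Omd 1.84-fold (-0.88, -1.0 to -0.76), Podn 1.65-fold (-0.72, -0.85 to -0.59) and Ogn 1.64-fold (-0.71, -0.74 to -0.68). These 4 of the 9 genes were past 1.5-fold, against 10.3% of the 12423 genes with at least 50 UMIs in both libraries together. The other 5 genes had log2 ratios from -0.45 (Aspn) to -0.35 (Prelp). The median log2 ratio was -0.45 over the 9 genes and -0.0019 over all genes tested. Lum was the 1 gene whose direction turned under an alternative, with a log2 ratio of 0.06 where cells got their class one by one from their markers, with no clustering. Markers of other cells also differed in this class. Summed erythroid markers were at 1489 CPM in APOE2 against 298 and 409 CPM, neutrophil markers at 190 CPM against 1.48 and 1.31 CPM, and smooth muscle markers at 8196 CPM against 10273 and 10037 CPM. Of the 10 smooth muscle markers and 12 fibroblast markers none was at 0 in any library in this class, and the fibroblast markers summed to 7480, 9938 and 8595 CPM. Cells with the highest doublet scores made up 15.8%, 12.3% and 9.46% of the class in APOE2, APOE3 and APOE4. The number marked in each library was set from its barcodes, at 1157 of 11772, 391 of 6737 and 592 of 8248 cells. These shares therefore do not compare doublets between libraries. The part of these values in the ratios was not tested.

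The difference was not even over the clusters. In R5, Fmod was 2.30-fold lower in APOE2 than in APOE3 (log2 ratio -1.20, -1.30 to -1.11), and it was the only one of the 9 genes past 1.5-fold there. That is 1 of 9 genes, against 4.17% of 10577 genes past the limit upward and 3.90% downward, so the R5 count is near the share of all genes. The other 8 had log2 ratios between -0.39 and -0.07. In R7, Fmod was 9.25-fold lower (-3.21, -3.57 to -2.87), Omd 2.22-fold lower (-1.15, -1.38 to -0.93) and Ogn 2.03-fold lower (-1.02, -1.07 to -0.97), and the remaining 6 genes were between -0.52 and -0.26. Past 1.5-fold in R7 were 3 of 9 genes, all lower, against 6.32% of 10870 genes higher and 8.60% lower. Fmod was detected in 6.78% of R7 cells in APOE2 against 37.0% in APOE3 and 21.1% in APOE4. After thinning these shares were 0.992%, 8.40% and 4.72%. All 9 genes were lower in APOE2 than in APOE3 in R5 and in R7. In R9, 7 of the 9 were lower, and Dcn and Lum were not (log2 ratio 0.04 and 0.23). Of all genes tested, 54.1% in R5, 47.3% in R7 and 57.8% in R9 were higher in APOE2 than in APOE3.

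APOE4 lay between the other libraries for most genes of the fibroblast-like class. Against APOE3 only Fmod was past 1.5-fold (1.53-fold lower, log2 ratio -0.61, -0.69 to -0.54), which is 1 of 9 genes against 10.1% of all genes. This value lies near the limit and was under it in 4 of the 10 alternatives. Dcn and Bgn were at nearly the same level in APOE4 and APOE3 (log2 ratio -0.0006 and 0.0011). From APOE4 to APOE2, Fmod (2.31-fold higher in APOE4) and Omd (1.54-fold higher) were past 1.5-fold, or 2 of 9 genes against 13.4% of all genes. Lum and Aspn hardly differed between APOE4 and APOE2 (log2 ratio 0.05, 0.02 to 0.09, and 0.03, -0.04 to 0.10). Within clusters, 6 of the 9 genes in R5, 7 in R7 and 6 in R9 were higher in APOE4 than in APOE2, against 9 in the class. The share of all genes was 34.6%, 46.5% and 30.8% in these clusters. The median log2 ratio of the 9 genes was 0.17, 0.32 and 0.26 there, against 0.44 in the class.

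**Figure D2:**
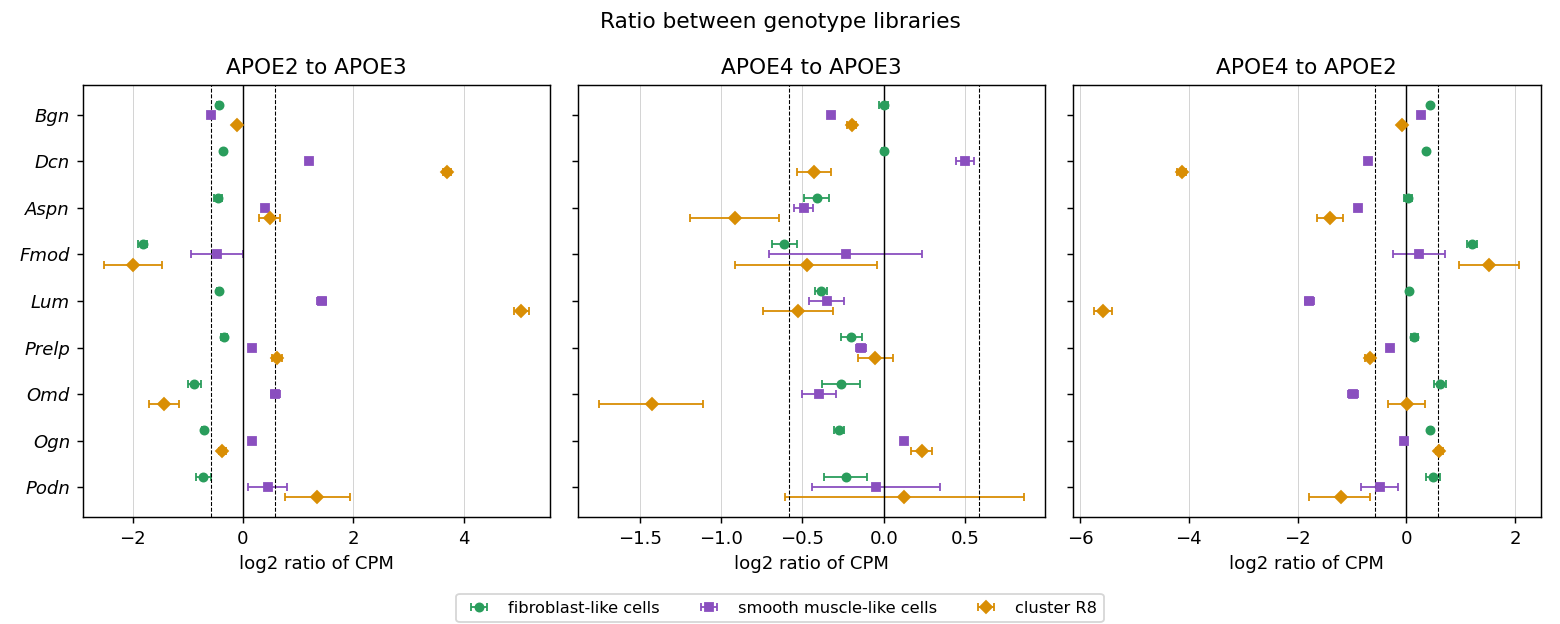
Log2 ratio of CPM between genotype libraries for each gene in fibroblast-like cells, smooth muscle-like cells and cluster R8, with bars for the exact conditional binomial 95% interval and dashed lines at 1.5-fold; each panel has its own axis range. From APOE2 to APOE3 all 9 fibroblast-like points are below 0, and the Lum point of R8 is at 5.05.

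In smooth muscle-like cells the directions were mixed. From APOE2 to APOE3, 4 of the 9 genes were past 1.5-fold against 11.3% of 14630 genes. Lum was 2.69-fold higher in APOE2 (log2 ratio 1.43, 1.35 to 1.51), Dcn 2.29-fold (1.20, 1.15 to 1.25) and Omd 1.50-fold (0.59, 0.50 to 0.67). Over the 11 alternatives the log2 ratio ran from 0.92 to 3.55 for Lum and from 0.66 to 1.98 for Dcn. Whether the Dcn share of smooth muscle-like cells lies above background could not be told, so the Dcn ratio is not read as a difference in smooth muscle expression. For Lum the part of background was not tested. Bgn was lower in APOE2 (log2 ratio -0.59, -0.59 to -0.58). Bgn and Omd lie at the limit, and 8 of 11 alternatives kept Bgn past it. Ogn and Prelp had log2 ratios of 0.17 and 0.17, and Aspn of 0.40. From APOE4 to APOE3, 0 of the 9 genes were past 1.5-fold against 10.9% of 14491 genes. From APOE4 to APOE2, 4 of 9 were, against 16.5% of 14900 genes, with Lum, Omd, Aspn and Dcn lower in APOE4 by log2 ratios of -1.78, -0.99, -0.89 and -0.70. Ratios of these genes in cells split by Hand2 and Hox genes are given below.

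Bgn was lower in APOE2 than in APOE3 in each of the 7 smooth muscle-like clusters. The log2 ratio ran from -0.80 in R2 and -0.60 in R12 to -0.31 in R3 and -0.14 in R14. In R2, the cluster with 2247 of its 2985 cells from APOE2, Bgn was at 1120, 1952 and 1677 CPM. Lum was higher in APOE2 in every one of the 7 clusters, but its level outside R12 and R14 was low, between 4.51 and 12.4 CPM in APOE2 and between 1.57 and 5.10 CPM in APOE3. Dcn in R12 was at 830 CPM in APOE2 against 35.0 and 27.4 CPM, and Lum there at 172 CPM against 9.12 and 6.42 CPM. R12 led in mitochondrial transcripts, had a median of 6655 UMIs per cell, and in APOE2 held Clec3b at 48.2 CPM and Dpt at 32.5 CPM, against 3.55 and 1.52 CPM in APOE3. In R14, which led in Adamtsl1 and Fgf12, Dcn was at 1440, 977 and 1060 CPM and Lum at 775, 435 and 218 CPM. The 10% of R14 cells with the most Dcn held 90.4% to 92.9% of its Dcn UMIs. The summed fibroblast markers of R14 were at 1741, 1925 and 1839 CPM, against 300 to 368 CPM in the whole smooth muscle-like class.

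Aspn, Omd, Dcn and Lum were each higher in smooth muscle cells with Hand2 than in those with Hox genes in all 3 libraries. Cells were split by UMIs of Hand2, a transcription factor of the proximal outflow region, or of 6 Hox genes that are used further back in the embryo, over the smooth muscle-like class and R4, a cluster led by Rgs5 and Hox genes. Hand2 without Hox was found in 3106, 1205 and 1007 cells, and Hox without Hand2 in 1578, 1452 and 2279 cells. The level of Aspn in Hand2 cells was 120, 111 and 88.3 CPM, against 44.6, 38.4 and 36.3 CPM in Hox cells (log2 ratio 1.42, 1.52 and 1.28). Omd was higher in Hand2 cells too, by log2 ratios of 1.07, 0.73 and 1.01. The log2 ratios were 0.54, 1.85 and 0.74 for Dcn and 1.29, 0.56 and 0.59 for Lum. Dcn was at 13.9 to 66.7 CPM and Lum at 3.34 to 24.0 CPM over these cells. The part of background in the Dcn and Lum values was not tested, so they are not read as smooth muscle expression by position. Ogn was lower in Hand2 cells in each library (-0.14, -0.48 and -0.38), and Bgn was higher by 0.22 to 0.29. The Hand2 cells were the deeper ones, with medians of 15230, 22104 and 17506 UMIs against 13658, 19174 and 15498.

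**Figure D3:**
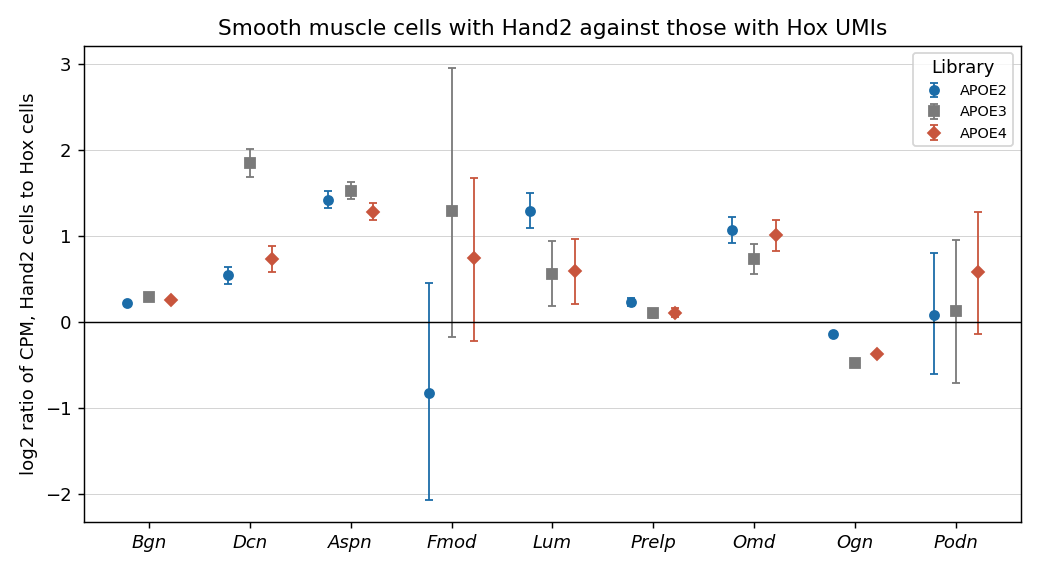
Log2 ratio of CPM between smooth muscle cells with Hand2 and no Hox UMIs and those with Hox and no Hand2 UMIs, for each gene and library, with exact conditional binomial 95% intervals. Aspn, Omd, Dcn and Lum are above 0.5 and Ogn is below 0 in all 3 libraries.

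Within Hand2 cells the log2 ratio of Aspn from APOE2 to APOE3 was 0.11 (0.05 to 0.18) and within Hox cells 0.22 (0.09 to 0.34). It was 0.40 in the smooth muscle-like class as a whole, which is another set of cells, since R4 is not in it. The split also left out 2605, 1500 and 2116 cells with UMIs of neither Hand2 nor Hox genes or of both. For Omd the values were 0.56 (0.44 to 0.69) and 0.23 (0.03 to 0.42), against 0.59 in the class. Bgn was lower in APOE2 within both (-0.65, -0.66 to -0.63, and -0.57, -0.59 to -0.55). Lum was higher in APOE2 within both (2.27 and 1.54). From APOE4 to APOE2, Aspn was at -0.44 within Hand2 cells and -0.30 within Hox cells, under 1.5-fold in both, against -0.89 in the class. Omd was at -0.63 and -0.57, against -0.99 in the class. Lum was at -2.26 and -1.55 and Dcn at -1.03 and -1.22, where the part of background was not tested.

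Of the 9 genes, Lum had the largest ratios between libraries over the classes and clusters compared, and had them in R8, a cluster that had each of the 10 smooth muscle markers at no less than 50% of its level in all cells together, but led in Spp1, Vcam1, Lcn2 and Timp1. It was left unnamed because chondrocyte markers were raised in it as well. R8 held 490, 270 and 339 cells in the order APOE2, APOE3, APOE4. The Lum level was 1989 CPM in APOE2 (interval 1964 to 2014), against 60.2 CPM (54.7 to 66.1) for APOE3 and 41.8 CPM (37.3 to 46.7) for APOE4. That is 33.0-fold higher in APOE2 than in APOE3 (log2 ratio 5.05, 4.91 to 5.18) and 47.6-fold higher than in APOE4. Dcn was at 3174, 244 and 181 CPM, 13-fold higher in APOE2 than in APOE3 (3.70, 3.63 to 3.77). In APOE2 the level of Lum in R8 was above that in R5 (1456 CPM), the fibroblast-like cluster with the most Lum. R8 held 47.3% of all Lum UMIs of the APOE2 library, against 2.87% and 2.15% in APOE3 and APOE4.

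**Figure D4:**
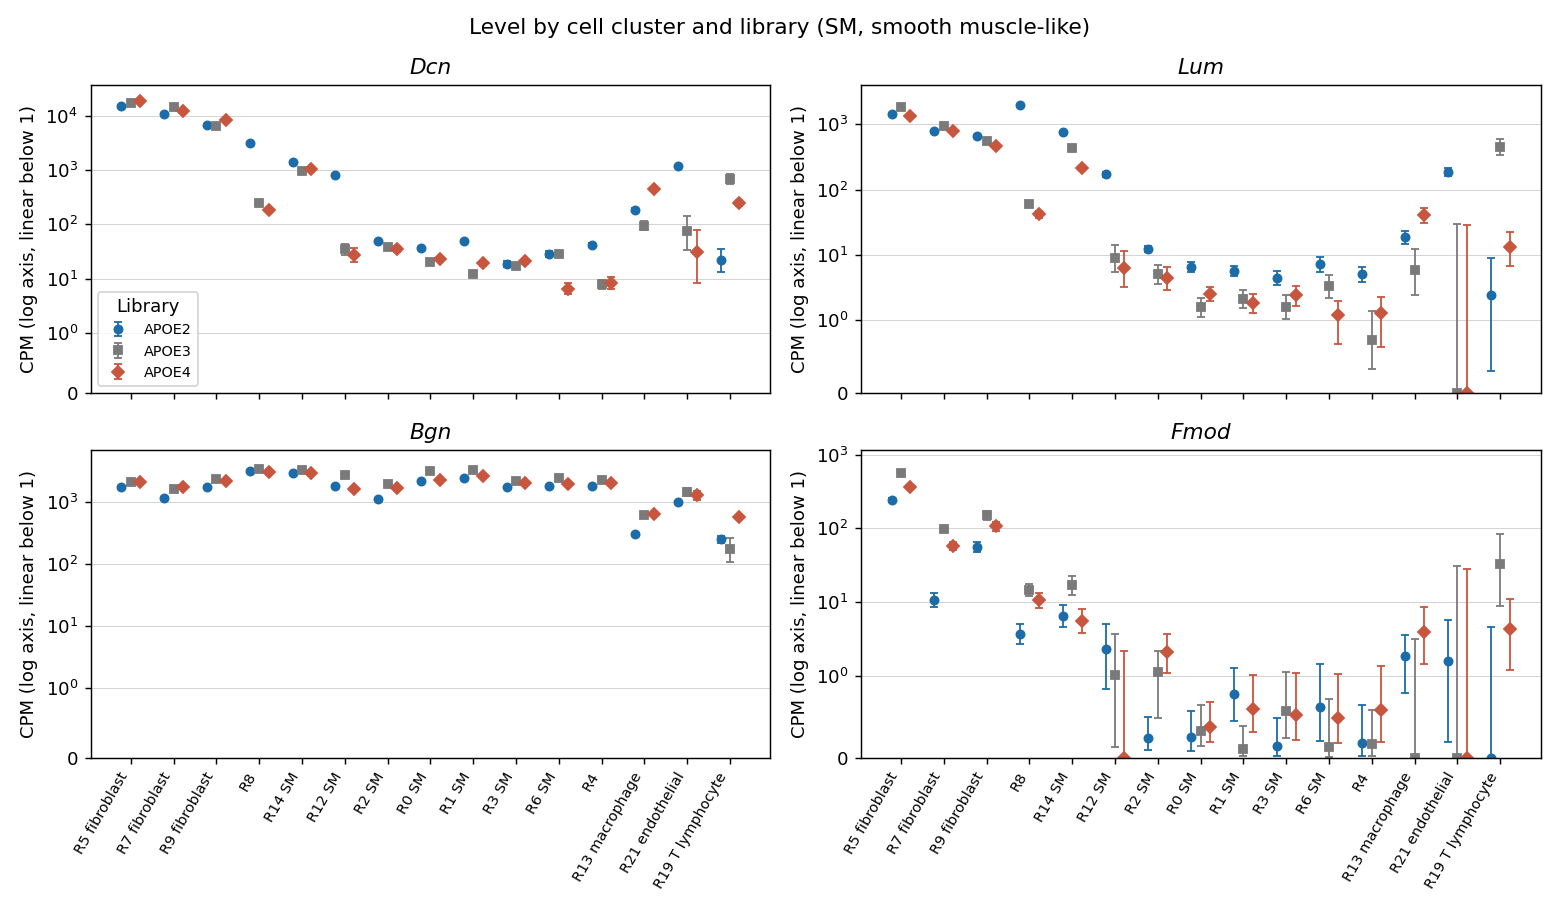
CPM of Dcn, Lum, Bgn and Fmod by cell cluster and library on an axis that is logarithmic above 1 and linear below, with exact Poisson 95% intervals. Lum and Dcn of R8 stand apart in APOE2 (1989 and 3174 CPM), and Fmod is highest in R5.

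The other members differed less between the libraries in R8, and in both directions. Bgn was at 3111, 3365 and 2935 CPM (log2 ratio APOE2 to APOE3 -0.11, -0.14 to -0.09), and each was above the level of the smooth muscle-like class. Prelp was at 288, 188 and 181 CPM and Podn at 10.9, 4.34 and 4.74 CPM, 1.53-fold and 2.52-fold higher in APOE2 than in APOE3. Fmod was lower in APOE2, at 3.70, 14.6 and 10.6 CPM, and so was Omd, at 15.4 CPM against 41.5 CPM in APOE3, with 15.4 CPM in APOE4. Ogn was at 364, 471 and 554 CPM and Aspn at 61.5, 43.9 and 23.3 CPM. In all, 6 of 9 genes were past 1.5-fold from APOE2 to APOE3, 4 of them higher and 2 lower, against 15.8% of 11355 genes. From APOE4 to APOE3, Omd and Aspn were past 1.5-fold and both were lower in APOE4, which is 2 of 9 against 10.5%. From APOE4 to APOE2, 7 of 9 were past it against 16.2%.

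The Lum and Dcn UMIs of R8 were spread over many cells in APOE2 and few in the other libraries. A Lum UMI was found in 288 of 490 cells in APOE2 (58.8%, 54.3% to 63.2%), in 41 of 270 in APOE3 (15.2%, 11.1% to 20%) and in 53 of 339 in APOE4 (15.6%, 11.9% to 19.9%). After thinning to 1000 UMIs these shares were 42.4%, 6.30% and 3.55% for Lum and 36.8%, 9.63% and 6.80% for Dcn. Lum was above 300 CPM in 245, 21 and 14 cells. Both genes were found together in 257, 31 and 39 cells. The 10% of cells with the most Lum held 59.2% of the Lum UMIs in APOE2, and 95.7% and 93.9% in APOE3 and APOE4.

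**Figure D5:**
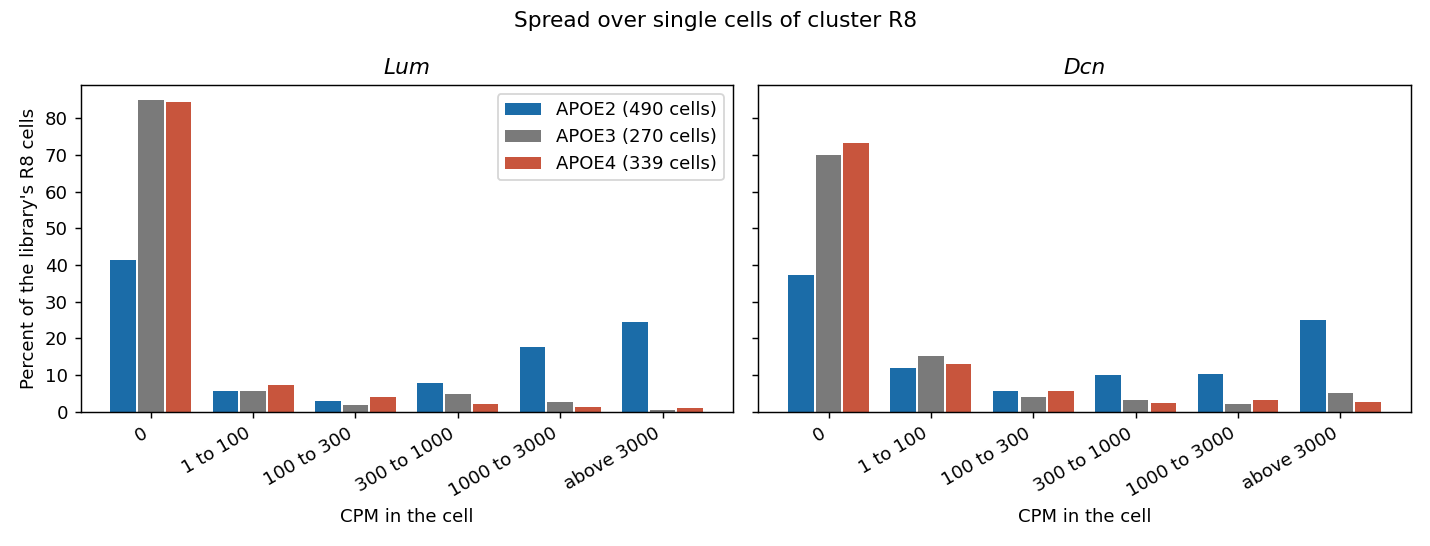
Percent of the R8 cells of each library by the CPM of Lum (left) and Dcn (right) in the single cell. Above 3000 CPM of Lum lie 24.5% of APOE2 cells, 0.370% of APOE3 cells and 0.885% of APOE4 cells.

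The summed fibroblast markers of R8 were far below those of the fibroblast-like class (7480 to 9938 CPM), by amounts that differed between markers. Mfap5 was at 321, 235 and 318 CPM in R8, most of the sum, against 1146 to 1208 CPM in fibroblast-like cells, and Cd248 at 26.4, 28.8 and 25.7 CPM against 88.9 to 128 CPM. Pdgfra was at 14.2, 7.87 and 9.33 CPM, Clec3b at 13.8, 1.36 and 3.25 CPM and Dpt at 19.1, 1.22 and 6.49 CPM, against 256 to 316, 1350 to 1851 and 586 to 621 CPM in fibroblast-like cells. The 12 fibroblast markers summed to 497, 309 and 402 CPM in R8, with 9, 3 and 3 of them at 10 CPM or more and Scara5 and Dpp4 at 0 in APOE3 and Dpp4 at 0 in APOE4. The 8 chondrocyte markers summed to 405, 803 and 226 CPM and the neutrophil markers to 45.7, 0.678 and 1.08 CPM. Cells with the highest doublet scores, whose number was set for each library from its barcodes, were 9.39%, 4.07% and 15% of R8. The Lum log2 ratio of APOE2 to APOE3 ran from 4.34 to 5.20 over the 5 alternatives tried for it. Smooth muscle transcripts were lower in APOE2. Myh11 was at 906, 1396 and 1434 CPM and Acta2 at 11206, 17062 and 18527 CPM. Spp1, which encodes the matrix protein osteopontin, was at 6236, 66.6 and 28.1 CPM, Vcam1 at 2864, 1019 and 618 CPM and Timp1 at 2083, 286 and 267 CPM. Their part in the Lum and Dcn values was not tested.

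A finer clustering split R8 mainly into a pair of groups, and Lum differed in both. In the group with more Spp1 and less Myh11 (290, 101 and 92 cells) Lum was at 3000, 138 and 122 CPM and Dcn at 4672, 529 and 545 CPM. This group had chondrocyte markers and was named chondrocyte-like in the finer clustering. In the group with more Myh11 (176, 150 and 225 cells) Lum was at 94.1, 4.22 and 5.43 CPM and Dcn at 172, 28.2 and 16.1 CPM. Omd and Fmod were lower in APOE2 than in APOE3 in the Spp1 group only. There Omd was at 14.1, 81.2 and 22.1 CPM and Fmod at 4.18, 33.8 and 32.5 CPM. In the Myh11 group Omd was at 16.6, 13.5 and 11.3 CPM, and Fmod at 1.36, 0.528 and 0.217 CPM, on 5 UMIs or fewer per library. When the 9 genes were put back among the clustering features, the cluster that held most of R8 (76.9% of its cells) had Lum at 2164, 65.2 and 60.7 CPM.

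Over the 64 sums of cells by cluster and library (clusters with at least 30 cells in that library), the members fell into patterns that are described by Pearson correlations of log2(CPM + 1), without a test, since the sums share libraries and depth. Dcn was most similar to its neighbour Lum (r = 0.96), then to Cygb (0.94) and Dpt (0.93), and Lum to Dcn, Fbln1 (0.91) and Cd34 (0.90). Fmod was most similar to Podn (0.90), Cpxm2 (0.90) and Cygb (0.89), and Podn to Smoc2, Cpxm1 and Dio2 (0.92, 0.92 and 0.91). Bgn went with Igfbp7 (0.96), Htra1 (0.94) and Gna11 (0.94). Ogn and Prelp both had Aebp1 as the most similar gene (0.89 and 0.91), followed by Abcc9 and Fmo2 for Ogn (0.86 and 0.86) and by Rcn3 and Gstm2 for Prelp (0.90 and 0.90). Aspn was most similar to its neighbour Omd (0.84), then to Nr2f2 (0.82) and Cdkn1c (0.80), and Omd to Abi3bp, Mxra7 and Prrx1 (0.88, 0.87 and 0.87). Among the members themselves r ran from 0.07 for Lum and Ogn to 0.96 for Dcn and Lum.

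Other genes of the pathway were taken from lists. Of 10 further leucine-rich proteoglycan genes, Optc (149 to 162 CPM in smooth muscle-like cells) and Ecm2 (153 to 199 CPM) were well represented, and Kera had 0 UMIs in all cells. Chad, which encodes chondroadherin, was at 26.2 CPM in fibroblast-like cells of APOE3 against 0.407 and 0.327 CPM in APOE2 and APOE4. In smooth muscle-like cells Chad was at 1.55 CPM in APOE3 against 0.0989 and 0.341 CPM. The part of background in these Chad values was not tested. In R8 Chad was at 251 CPM in APOE3 and 0.165 CPM in APOE2 (log2 ratio -10.58, -13.62 to -8.72), with 6.49 CPM in APOE4. From APOE2 to APOE3, 2 of the 6 genes with enough UMIs in fibroblast-like cells were past 1.5-fold, against 10.3% of all genes. Both were lower in APOE2, Chad as given above and Chadl at 7.86 against 12.1 CPM. Of 23 genes for the synthesis of glycosaminoglycan chains, 2 were higher and 2 lower in fibroblast-like cells from APOE2 to APOE3, against 10.3% of all genes past the limit in either direction, and 0 of 23 were past it in smooth muscle-like cells, against 11.3%.

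A further list held collagens and growth factors that the family binds, and also Tlr2, Tlr4, Lox, Eln and Fbn1. In fibroblast-like cells 4 of its 18 genes were past the limit and lower in APOE2, and 0 were higher. Of all genes 10.3% were past it in either direction. The 4 genes are named next. Those lower in APOE2 were Col1a1 (919 against 1393 CPM, log2 ratio -0.60), Col1a2 (1816 against 2920 CPM, -0.68), Col12a1 (-0.62) and Tgfb3 (-0.83). In R8, where 15.8% of all genes were past the limit in either direction, 7 of 18 were higher in APOE2 and 0 lower, among them Col3a1 (1540 against 556 CPM), Col12a1 (22 against 1.63 CPM) and Lox (160 against 77.4 CPM), the gene of a collagen cross-linking enzyme. Of the proteases that cut these proteoglycans, 5 of 8 were higher in APOE2 in R8 and 0 lower. Mmp3, a matrix metalloproteinase, was at 373 against 20.1 CPM in APOE3, and Mmp14 at 60.1 against 33.5 CPM. In fibroblast-like cells only Htra1 of 9 such genes was past 1.5-fold, at 255 against 441 CPM, a share near the 10.3% of all genes. Of the large proteoglycans in R8, 8 of 15 were higher in APOE2 and 1 (Acan, aggrecan, 31.7 against 65.1 CPM) lower. Prg4, which encodes the lubricant lubricin, was at 427 against 3.25 CPM in R8 and at 916 against 23.5 CPM in fibroblast-like cells.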

How the data were processed

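Aortas of pooled mice were dissociated and run as 10x Genomics single-cell libraries, and the authors deposited 1 matrix of raw UMI counts per genotype, made with Cell Ranger 7.0.1 per the file headers and the mm10 mouse genome. The members and gene lists were chosen with earlier results of these data known. From the deposited counts, cells with at least 200 genes and under 20% mitochondrial UMIs were kept. Libraries were normalized with sctransform 0.4.2 and integrated with Seurat 5.3.0 (3000 features without the members, 30 components, Louvain resolution 0.8), and clusters were named from marker lists. A name needed 3 raised markers or, for smooth muscle, 8 of 10 markers kept. Doublets were not removed, and Scrublet scores were used in an alternative. The share of cells marked as having the highest scores was 0.8% per 1000 deposited barcodes of a library. UMIs were summed per class and library, and divided by all UMIs of the class (CPM), with 95% intervals from the exact Poisson distribution. Ratios have exact conditional binomial intervals and were checked on simulated Poisson counts. The intervals assume such counts, so the check does not cover UMIs that are uneven over cells. Genes with at least 50 UMIs over both libraries were compared at a limit of 1.5-fold. Shares of cells with a UMI were taken after thinning each cell to 1000 UMIs, with exact Clopper-Pearson intervals. Named genes were the 9 members, the 3 genes most similar to each (among genes of at least 100 CPM in a sum), and list genes with the largest ratios. Each library held 124926887 to 168310501 UMIs. Intervals cover counting error only, and cells are not replicates.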

Additional observations from a re-analysis of the deposited data

Results flagged for a closer look

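Several genes were higher in 1 library in smooth muscle-like cells and lower in the same library in fibroblast-like cells. With 1 library per genotype the difference between the classes was not tested, and the values below are the log2 ratio in smooth muscle-like cells minus that in fibroblast-like cells. From APOE2 to APOE3 this difference was 1.56 for Dcn, 1.87 for Lum, 0.88 for Ogn, 0.51 for Prelp, 1.47 for Omd, 0.85 for Aspn and 1.17 for Podn, with each gene lower in APOE2 in fibroblast-like cells and higher in smooth muscle-like cells. From APOE4 to APOE3 it was 0.40 for Ogn. From APOE4 to APOE2 it was -1.06 for Dcn, -1.83 for Lum, -0.48 for Ogn, -0.45 for Prelp, -1.61 for Omd and -0.98 for Podn. The comparisons share libraries, so the first and last sets of values are not independent of each other. The smooth muscle-like ratio of Dcn is not read as a difference in expression, and for Lum the part of background was not tested. Podn was at only 1.84, 1.35 and 1.31 CPM in smooth muscle-like cells. Its ratio there from APOE2 to APOE3 was past 1.5-fold in 1 of 11 alternatives. Ogn and Prelp both had a log2 ratio of only 0.17 in smooth muscle-like cells from APOE2 to APOE3. Within Hand2 cells the ratio was 0.32 and 0.14. Within Hox cells it was -0.01 (-0.03 to 0.01) for Ogn and 0.01 (-0.05 to 0.06) for Prelp, so neither was higher in APOE2 beyond counting error there. From APOE4 to APOE2, Lum was at only 0.05 in fibroblast-like cells and Ogn at only -0.05 in smooth muscle-like cells. Their directions were kept in 8 of 10 and 9 of 11 alternatives. Podn in that comparison was at 0.39 (-0.28 to 1.03) within Hand2 cells and -0.11 (-0.85 to 0.66) within Hox cells, so it was not lower in APOE4 beyond counting error in either.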

How the results depend on the processing

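No direction of a gene past the limit turned in R8 under its alternatives, which changed the cells kept or the scaling and not the clusters. In the Myh11 group of the finer clustering of R8, Omd and Fmod were not lower in APOE2 than in APOE3. In fibroblast-like cells 8 genes were higher than in smooth muscle-like cells in every library under all alternatives but 1, which gave 7. The count of genes past 1.5-fold from APOE4 to APOE3 in fibroblast-like cells was 0 in place of 1 when the highest Scrublet scores were left out, when the members were kept among the clustering features, with the mean of each cell's CPM, and when ratios were scaled by the median gene. In smooth muscle-like cells it was 1 in place of 0 at Louvain resolution 1.6, with each cell classed by its own markers and without R12 and R14, and 2 with the members kept and with all clusters that kept smooth muscle markers. From APOE4 to APOE2 in fibroblast-like cells the count was 4 with each cell classed by its own markers and 1 with the mean of each cell's CPM, in place of 2. The cause was not tested. The alternatives over clusters without R9, without R12 and R14 and with all such clusters, and those of R8, were chosen after seeing the data. In smooth muscle-like cells the log2 ratio of Lum from APOE2 to APOE3 ran from 0.92 to 3.55 and that of Dcn from 0.66 to 1.98, and Dcn from APOE4 to APOE3 (0.50) ran from -0.71 to 0.58. The intervals hold counting error and not differences between mice, which 1 pooled library per genotype cannot show. No paired analysis was possible because each genotype has 1 library.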
